A study of Mus musculus with 2 samples.

Results

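The imprinted growth genes described here are Igf2, Mest, Dlk1, Peg3 and Plagl1, which are expressed from the paternal allele, and H19, Meg3, Cdkn1c, Grb10 and Igf2r, which are expressed from the maternal allele. These 10 genes were listed by symbol, and each matched 1 of the 43346 rows with an Ensembl mouse gene identifier. RNA came from whole livers pooled from male and female mouse embryos of strain B6NCrl at embryonic day 11.5, with no mutation or treatment named in the labels, and the label of replicate 1 gives 109 embryos. There were 2 biological replicates with 1 library each, both of the same group, made by a SmartSeq protocol from 1 cell-equivalent of total RNA. The design holds no second condition, so levels are given per library and as mean ± SD (n = 2), and differences between the libraries have no test.

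Genomic imprinting silences 1 parental copy of a gene through DNA methylation laid down in the egg or the sperm. Many imprinted genes act on fetal growth, and paternally expressed genes often promote it while maternally expressed ones often restrain it. In the fetal liver, hepatoblasts, the precursors of hepatocytes, and the mesenchyme around them are known to express several of these genes. The deposited tables do not separate the alleles, so the parental classes are background and were not measured.

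All 10 genes were expressed in both libraries, from 1936 estimated reads for Cdkn1c in replicate 2 to 45597 for Mest in the same library. Each had a TPM (a level per length, scaled to the same total in each library) of at least 1 in both, against 15% of all Ensembl genes and 60.1% of those reaching that level in either library. Their summed share of TPM was 0.246% in replicate 1 and 0.244% in replicate 2. In bulk tissue, fewer cells of a type and less RNA per cell cannot be told apart. Expected counts (estimated reads) summed to 33289699 for replicate 1 and 32607453 for replicate 2. A gene with no read may still have up to 3 reads at this depth, or a CPM (reads scaled to the library total, with no length) of 0.0901 and 0.092. PCR copies are not independent molecules, so that limit covers counting error only.

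Markers of the labelled tissue were present. Of 10 hepatoblast markers, all were at TPM 1 or more in replicate 1 and 9 in replicate 2, where Hnf4a had no read, with summed TPM of 12797 and 11475. Apoa1, Apoe and Alb ran against that sum. All 10 erythroid markers were detected in both libraries. Lists for 6 other cell types were also read. The mesenchymal and stellate list, detected in both libraries for 7 of 10 genes, summed to 266 TPM in replicate 1 and 595 in replicate 2, with Lhx2 at 0 in both. Against that sum, Des was at 36.2 and 23.5 TPM, Pdgfrb at 11.01 and 0.01 and Pdgfra at 1.78 and 0.03. The heart muscle list, 3 of 8 in both, summed to 107 and 272 TPM, with Myl7 and Myl2 at 0 in replicate 1 and Myh7 and Nppa at 0 in both. Against that sum, Tnni1 was at 56.3 and 37 TPM and Actc1 at 43.5 and 30.3. The macrophage list, 4 of 8 in both, summed to 340 and 145 TPM, with Cd68 at 0 in both and Csf1r and C1qa at 0 in replicate 2. Adgre1, at 2.83 and 7.92, and Mrc1, at 0.01 and 9.04, went the other way. The megakaryocyte list summed to 968.5 and 1215 TPM with 4 of 6 genes in both libraries. The endothelial list summed to 112 and 145 with 5 of 8, and the mesothelial list to 35.7 and 45.1 with 2 of 6. Against the megakaryocyte sum, Itga2b was at 59.6 and 34.1 TPM, Gp9 at 43.4 and 33.6 and Gp1bb at 9 and 0.19. Lyve1, at 44.6 and 22.6, ran against the endothelial sum and Podxl, at 12 and 10.5, against the mesothelial sum. Pecam1 was at 0 in replicate 1, Upk3b in replicate 2, and Msln and Krt19 in both. Of the genes at TPM 1 or more in either library, the share in both was 60.1% over all genes. It was 90% for the hepatoblast, 100% for the erythroid and 77.8% for the mesenchymal list. For the other lists it was 66.7% (megakaryocyte and mesothelial), 62.5% (endothelial), 57.1% (macrophage) and 50% (heart muscle). The part of these cell types in the values below was not tested.

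The members spanned a 45.8-fold range of mean level. Mest was highest at 675 ± 64.8 TPM, followed by H19 at 600.3 ± 0.799, Igf2 at 480.4 ± 116 and Meg3 at 276 ± 19.9. Grb10 had 125 ± 25.5 TPM, Dlk1 98.9 ± 25.4, Plagl1 65.8 ± 23.4, Peg3 63.2 ± 2.05 and Cdkn1c 48.3 ± 16.3. Igf2r was lowest at 14.7 ± 6.8 TPM. Of the 9 steps in this order, 3 joined genes whose library values overlapped: Grb10 and Dlk1, Dlk1 and Plagl1, and Plagl1 and Peg3. At the other 6 steps every library value of the higher gene lay above those of the lower.

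**Figure D1:**
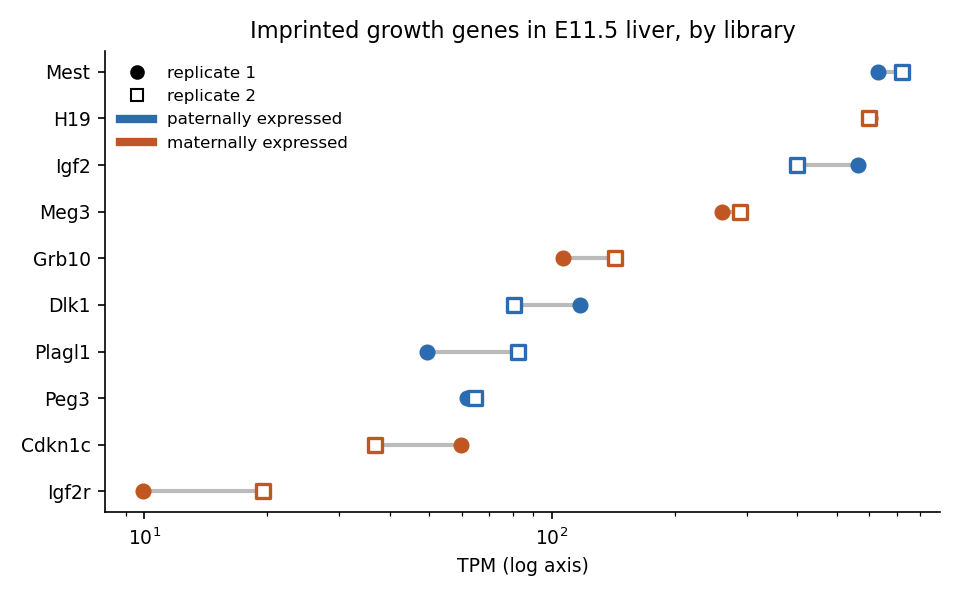
TPM of each imprinted growth gene on a log axis, with a filled circle for replicate 1, an open square for replicate 2 and a grey line joining them (blue, paternally expressed; orange, maternally expressed). Mest, H19 and Igf2 lie between 398 and 721 TPM, Igf2r between 9.93 and 19.5.

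Igf2 encodes insulin-like growth factor 2, the main fetal growth factor of this family (chromosome 7, 142650766 to 142666816, minus strand, mm10). It had 563 TPM from 18043 reads in replicate 1 and 398 TPM from 12186 reads in replicate 2. Replicate 1 was thus 1.41-fold higher, and the gene ranked 283rd and 389th among all Ensembl genes. The other insulin-like ligands were far below it. Igf1 had 4.72 and 34.6 TPM, and Ins1 and Ins2, the insulin genes, had no read in either library.

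The tables split Igf2 among 9 transcripts, of which 7 had reads in replicate 1 and 8 in replicate 2. The noncoding Igf2-208, whose 958 bases are all shared with other Igf2 transcripts, took 38.1% and 31.6% of the gene's reads. The coding Igf2-203, whose annotation is only 650 bases long, took 17% and 21.3%. Transcripts starting at 142657466 to 142657496, Igf2-202 and Igf2-201, took 35.5% and 41.2%. By TPM the leading transcript was Igf2-208 in replicate 1, with 48.1% of the gene's abundance, and Igf2-203 in replicate 2, with 40.4%. Both are short models, and a short model turns a given number of reads into a higher TPM. Reads are assigned here to whole transcripts, so an annotated start is not a measured start.

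The sequences upstream of 2 annotated Igf2 starts are shown because transcripts from both starts carried reads in both libraries. Each gives the 250 bases before a start, 5′ to 3′ on the minus strand, from the RefSeq promoter table (GRCm38.p6), at chr7:142657497-142657746 for the start of Igf2-201 and Igf2-202 and at chr7:142666817-142667066 for that of Igf2-203. Capitals mark GGGCGG, the GC box bound by Sp1, and CCAAT, on either strand.
Igf2-201 and Igf2-202: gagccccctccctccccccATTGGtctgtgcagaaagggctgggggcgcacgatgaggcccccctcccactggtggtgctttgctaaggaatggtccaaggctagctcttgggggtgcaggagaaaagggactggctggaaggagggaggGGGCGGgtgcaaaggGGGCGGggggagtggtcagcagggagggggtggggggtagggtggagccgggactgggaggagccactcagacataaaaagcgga
Igf2-203: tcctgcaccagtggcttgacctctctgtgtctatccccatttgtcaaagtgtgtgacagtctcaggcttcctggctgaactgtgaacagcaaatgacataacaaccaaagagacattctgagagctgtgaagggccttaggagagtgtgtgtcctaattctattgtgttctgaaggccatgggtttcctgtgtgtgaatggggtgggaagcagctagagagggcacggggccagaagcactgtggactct
The window of Igf2-201 and Igf2-202 held 2 GGGCGG matches, 1 CCAAT match and 6 CG dinucleotides, and that of Igf2-203 held no match and 1 CG dinucleotide.

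Igf2r encodes the IGF2 receptor, which carries IGF2 to lysosomes for breakdown and also sorts lysosomal enzymes (chromosome 17, 12682406 to 12769664, minus strand). It had 9.93 TPM from 2579 reads in replicate 1 and 19.5 TPM from 3989 reads in replicate 2, a ratio of 1.97 between the libraries. Its full-length transcript Igf2r-201 held all reads of replicate 1 and 97.7% of those of replicate 2. The rest went to the 803-base noncoding Igf2r-203, which took 22.8% of the gene's TPM in that library. Airn, a noncoding RNA on the opposite strand that overlaps Igf2r, had no read in replicate 1 and 236 reads in replicate 2. The sources used here do not state that counting used strand, so reads of overlapping genes on opposite strands cannot be told apart.

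Igf2 exceeded Igf2r by 56.7 times in TPM in replicate 1 and by 20.4 times in replicate 2. Igf2 itself was on the higher side in the library where Igf2r was on the lower. Because the Igf2r transcript is long, the ratio of reads was 7 and 3.05. Of the signalling receptors, Igf1r was below Igf2r in both libraries, and Insr was close to Igf2r in replicate 1 and below it in replicate 2. Igf1r, which passes on the signal of IGF1 and IGF2, was at 6.1 TPM in replicate 1 and at 0.01 in replicate 2, and Insr, the insulin receptor, had 10.6 and 1.15.

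Dlk1 encodes a transmembrane protein with EGF-like repeats, related to Notch ligands, that marks fetal hepatoblasts (chromosome 12, 109452823 to 109463336, plus strand). It had 117 TPM from 4861 reads in replicate 1 and 80.9 TPM from 3190 reads in replicate 2. The level in replicate 1 was 1.44-fold that in replicate 2. The same transcript led in both libraries. Dlk1-205, with 1158 coding bases, held 71.7% of the gene's reads in replicate 1 and 64.1% in replicate 2.

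Second was Dlk1-204, with 873 coding bases, at 21.8 TPM from 772 reads in replicate 1 and 16.5 TPM from 583 reads in replicate 2. Dlk1-204 has no exonic base of its own, so its reads are told apart through splice junctions. Splice forms of Dlk1 that lack the stretch next to the membrane are known to stay on the cell surface, since the site at which the protein is cut lies there. The coding stretch of Dlk1-205 that Dlk1-204 lacks is shown because it separates the leading forms. It is 285 bases long, at chr12:109459833-109460117 on the plus strand of GRCm38, from the annotated transcript sequence. Capitals mark the 153 bases that Dlk1-206 lacks as well, a form with 0.12 and 0.24 TPM.
Dlk1: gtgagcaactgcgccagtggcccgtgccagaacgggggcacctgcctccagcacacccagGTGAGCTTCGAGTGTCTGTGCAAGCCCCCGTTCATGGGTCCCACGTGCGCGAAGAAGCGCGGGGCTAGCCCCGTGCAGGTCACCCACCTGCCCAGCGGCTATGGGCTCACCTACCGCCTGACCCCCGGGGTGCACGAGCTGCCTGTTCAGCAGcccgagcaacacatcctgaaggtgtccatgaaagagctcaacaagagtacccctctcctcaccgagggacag

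Mest encodes a membrane protein of the endoplasmic reticulum from the alpha/beta hydrolase family and is a marker of mesodermal growth (chromosome 6, 30723547 to 30748465, plus strand). It had 629 TPM from 42543 reads in replicate 1 and 721 TPM from 45597 reads in replicate 2, ranking 242nd and 223rd of all genes. The libraries differed by 1.15-fold. Mest-211 led in both, with 97.7% and 94.2% of the gene's reads, and transcripts from its start at 30738050 to 30738053 together held 99.2% and 94.2%. In replicate 2, a transcript absent from the annotation release used for names took 2527 reads and 16.2% of the gene's TPM, and none in replicate 1. Copg2, which overlaps Mest on the opposite strand, had 2043 reads in replicate 1 and 24.2 in replicate 2.

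Grb10 encodes an adaptor that binds insulin and IGF1 receptors and damps their signal (chromosome 11, 11930508 to 12038683, minus strand). It had 107 TPM in replicate 1 and 143 TPM in replicate 2, a 1.34-fold difference. The reads behind these values were 3752 and 11192, a 2.98-fold difference. The TPM values differ less than the reads because the effective length assigned to the gene was 1191 bases in replicate 1 and 2672 bases in replicate 2. Grb10-201, the 5061-base transcript, held 68.6% of the gene's reads in replicate 1 and 93.5% in replicate 2. The 430-base Grb10-207 had 565 and 647 reads, and it alone gave 57.7 and 66.5 TPM. The size of the Grb10 difference between the libraries thus depended on the scale.

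Upstream flanks of the leading starts of Mest and Grb10 are shown beside those of Igf2, since each of these starts held most of its gene's reads in both libraries. Each is the 250 bases before the start from the same table, at chr6:30737800-30738049 on the plus strand for Mest-211 and at chr11:12037421-12037670 on the minus strand for the RefSeq start next to Grb10-201. Capitals mark the same motifs, but a match that overlaps an earlier one is not fully in capitals. The Grb10 window held 5 GGGCGG matches on either strand, and the last overlaps the one before it.
Mest-211: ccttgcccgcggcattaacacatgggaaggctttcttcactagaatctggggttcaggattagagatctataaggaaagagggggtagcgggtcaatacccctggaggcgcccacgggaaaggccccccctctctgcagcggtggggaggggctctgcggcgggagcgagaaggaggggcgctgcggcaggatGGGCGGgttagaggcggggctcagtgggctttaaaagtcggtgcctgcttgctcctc
Grb10-201: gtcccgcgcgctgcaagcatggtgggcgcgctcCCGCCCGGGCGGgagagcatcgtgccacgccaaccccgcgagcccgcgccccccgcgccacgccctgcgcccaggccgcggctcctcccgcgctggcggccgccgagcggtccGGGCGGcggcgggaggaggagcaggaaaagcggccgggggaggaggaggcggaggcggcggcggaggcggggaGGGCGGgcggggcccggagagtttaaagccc
The Mest window held 14 CG dinucleotides and the Grb10 window 40. Igf2 windows not shown here held 22 CG dinucleotides and 1 GGGCGG match (start at 142658804) and 10 CG dinucleotides (start at 142661271). RefSeq windows were found for 8 members, all but H19 and Cdkn1c, 15 windows in all, some of them overlapping or of the same gene. Of these 15, 8 held GGGCGG on either strand against 32.7% of 32851 windows of all genes, 3 held CCAAT against 33.9%, and 1, of Meg3, held TATAAA against 12.4%. GGGCGG contains a CG, and the median number of CG dinucleotides was 10 in members' windows and 6 in all windows. These matches describe the letters of the windows only.

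Cdkn1c encodes p57, an inhibitor of cyclin-dependent kinases that stops the cell cycle (chromosome 7, 143458339 to 143461050, minus strand). It had 59.8 TPM from 3170 reads in replicate 1 and 36.7 TPM from 1936 reads in replicate 2. Replicate 1 was 1.63-fold higher, the largest difference in that direction among the members. All its reads belonged to 1 transcript, so the length was the same in both libraries. Cdkn1c was the highest of the inhibitor family of p21, p27 and p57 in both libraries. Cdkn1a, for p21, had 17.6 and 10.1 TPM, and Cdkn1b, for p27, had 1.53 and 4.33.

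Plagl1 encodes a zinc finger transcription factor known to act on other imprinted genes (chromosome 10, 13060504 to 13131694, plus strand). It had 49.3 TPM from 7131 reads in replicate 1 and 82.3 TPM from 8541 reads in replicate 2. The levels differed by 1.67-fold and the reads by 1.2-fold. Plagl1-202 led in both libraries with 99.7% and 94.5% of reads, although its share of the gene's TPM was 94.6% in replicate 1 and 64.7% in replicate 2. Short transcripts took up the difference, among them the 630-base Plagl1-222, with no read in replicate 1 and 228 reads in replicate 2.

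Peg3 encodes a large zinc finger protein (chromosome 7, 6703892 to 6730431, minus strand). It had 61.8 TPM from 11024 reads in replicate 1 and 64.7 TPM from 15747 reads in replicate 2. The levels lay within 1.05-fold of each other and the reads differed by 1.43-fold. In replicate 1 the full-length Peg3-201 held 75.8% of reads and the truncated Peg3-203, which has no exonic base of its own, held 2665 reads. In replicate 2 Peg3-201 held 99.7% and Peg3-203 had no read.

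H19, a noncoding RNA downstream of Igf2 that shares its enhancers with it (chromosome 7, 142575529 to 142578143, minus strand), had 601 TPM from 23550 reads in replicate 1 and 599.7 TPM from 26706 reads in replicate 2. These were the closest TPM values of any member, at ranks 259 and 268. The reads differed by 1.13-fold, and the assigned effective length was 1326 bases in replicate 1 and 1516 bases in replicate 2. On CPM, which uses no length, Mest was the closest member. The reads were divided among 3 transcripts with no clear leader. H19-203 had 49.2% of TPM in replicate 1, and in replicate 2 H19-203 and H19-205 had 35.3% each. Igf2 stood at 0.937 of H19 in replicate 1 and at 0.664 in replicate 2, so H19 was higher in both libraries. With each gene's reads divided by its longest annotated transcript, H19 was higher still and the mean ratio was 0.289.

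Meg3, a noncoding RNA expressed from the maternal copy of the Dlk1 region (chromosome 12, 109541001 to 109571726, plus strand), had 261 TPM from 10729 reads in replicate 1 and 289.6 TPM from 8287 reads in replicate 2. TPM was thus higher in replicate 2 while the reads were fewer, because the assigned effective length was 1388 bases in replicate 1 and 974 bases in replicate 2. Meg3-205 held 52.8% and 37.5% of reads. The 457-base Meg3-203 had 47.6 and 108 TPM and led by TPM in replicate 2. Dlk1 stood at 0.447 of Meg3 in replicate 1 and 0.279 in replicate 2.

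The order of Dlk1 and Meg3 depended on the length used. When each gene's reads were divided by its longest annotated transcript, which for Meg3 is the 14548-base Meg3-209, the mean ratio of Dlk1 to Meg3 was 1.33. By reads alone Meg3 was higher, and Dlk1 stood at 0.453 and 0.385 of it.

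Other genes of the Dlk1 and Meg3 region were measured at very different levels. The noncoding Rian, maternally expressed, had 183 and 269 TPM, close to Meg3. Mirg, the next noncoding gene of the region, had 1.96 and 0.32 TPM. The paternally expressed Rtl1 had 4.29 TPM in replicate 1 and no read in replicate 2, and Dio3, a deiodinase, had no read. In the Cdkn1c region, the antisense RNA Kcnq1ot1 had 0.75 and 4.96 TPM from 1871 and 12277 reads. The TPM is low against these reads because it is a level per length. Phlda2 had no read.

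MicroRNA genes lie inside members, Mir675 in H19, Mir483 in Igf2, Mir335 in Mest and Mir770 in Meg3. Together with Mir1906-1, also in Meg3, they had no read and an effective length of 0 in both libraries. Their rows are shorter than the 100 bases at which a transcript first gets an effective length in these tables, so their 0 is not a measurement.

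Paternally and maternally expressed members were then summed. The 5 paternally expressed genes had 1420 TPM in replicate 1 and 1347 in replicate 2, or 0.138% ± 0.00516 of TPM. The 5 maternally expressed genes had 1039 and 1088 TPM, or 0.106% ± 0.00351. The ratio of the sums was 1.37 in replicate 1 and 1.24 in replicate 2, with a mean of 1.3 ± 0.0915. The paternal sum was the higher in both libraries. Mest alone, at 629 and 721 TPM, exceeded the gap between the sums, as did Igf2 alone, at 563 and 398. Without Mest alone, or without Igf2 alone, the maternal sum would thus be the higher in both libraries.

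A pair of genes carried most of each sum. Mest and Igf2 gave 84% and 83.1% of the paternal sum, and H19 and Meg3 gave 83% and 81.7% of the maternal sum. The maternal sum therefore consisted mainly of noncoding RNA. The medians ran differently from the sums. The median paternally expressed member stood at 117 TPM in replicate 1 and at 82.3 in replicate 2, and the median maternally expressed member had 107 and 143, so the order of the medians changed between the libraries. Without Igf2 and H19 the ratio of the sums was 1.96 and 1.94.

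No member differed 2-fold between the libraries. The difference was taken as the log2 ratio of replicate 2 over replicate 1 in TPM with a pseudocount of 1, centred on the median of all genes whose TPM averaged 10 or more. By this measure 51.1% of 6801 such genes were past 2-fold, 25.2% higher in replicate 2 and 25.8% higher in replicate 1. The median absolute log2 ratio was 0.46 over the 10 members and 1.03 over all these genes. The members' largest was 0.88, for Igf2r, and the smallest 0.03, for H19.

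Level bears on this comparison, since higher genes differ less between the libraries. At a mean TPM of 500 to 1000, 1.84% of 163 genes were past 2-fold, with a median absolute log2 ratio of 0.25, and Mest and H19 had a median of 0.1. At 200 to 500 the median was 0.45 over 432 genes and 0.32 over Igf2 and Meg3. At 50 to 100 it was 0.85 over 1156 genes and 0.55 over Dlk1, Plagl1 and Peg3. Single members filled the other ranges. Grb10 had 0.39 where the median of 749 genes was 0.62, Cdkn1c 0.71 where that of 2196 genes was 1.2, and Igf2r 0.88 where that of 1954 genes was 3.42. In each of the 6 ranges the members' value, a single gene or a median, was below the median of all genes, which describes these libraries without a test. Igf2 by itself, at an absolute log2 ratio of 0.52, was above the median of its range. The ranges were compared on TPM only, and Grb10 had a log2 ratio of 1.56 on CPM.

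**Figure D2:**
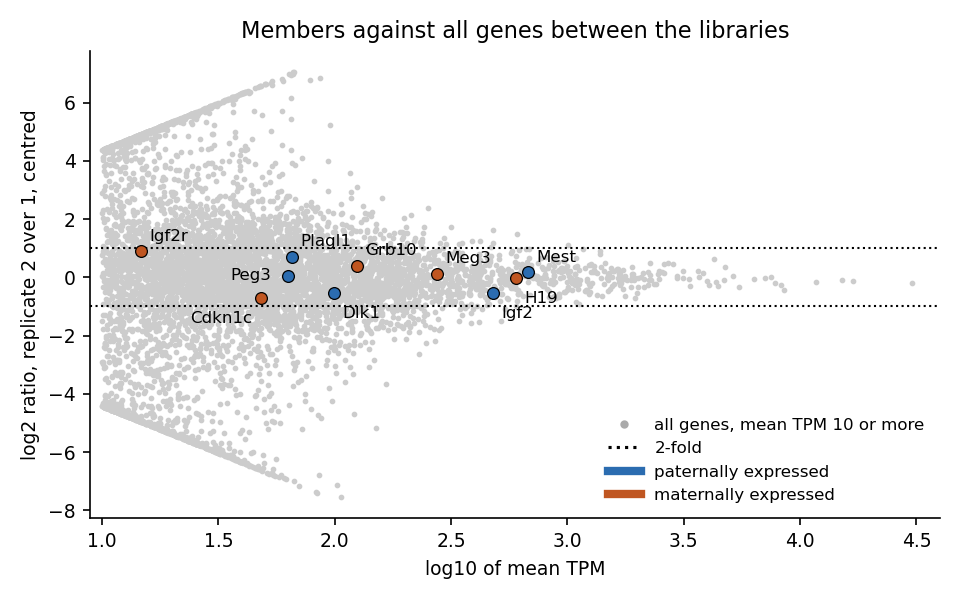
Centred log2 ratio of TPM, replicate 2 over replicate 1, against log10 of the mean TPM for 6801 genes (grey), with the members in blue (paternally expressed) and orange (maternally expressed) and dotted lines at 2-fold. The grey cloud narrows to the right and all 10 members lie between the dotted lines.

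By TPM, 6 members were higher in replicate 2 and 4 in replicate 1, with 3 of the 6 from each parental class. After median centring Igf2, Dlk1, Cdkn1c and H19 were lower in replicate 2. These directions were not all stable to scaling. Spike-in RNAs had a median log2 ratio of 0.42, against 0.03 for all genes. Centred on genes that averaged TPM 1 or more, H19 was also higher in replicate 2. Relative to the spike-ins only Plagl1 and Igf2r were higher in replicate 2, and Cdkn1c passed 2-fold.

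On reads scaled for depth alone, as CPM, Grb10 passed 2-fold with a log2 ratio of 1.56, against 0.39 on TPM, and 50.8% of the 6801 genes passed. Meg3 changed from 0.12 on TPM to -0.38 on CPM, and H19 from -0.03 to 0.17. Igf2, Dlk1 and Cdkn1c were lower in replicate 2 on both scales, and Plagl1, Igf2r, Mest and Peg3 were higher on both.

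**Figure D3:**
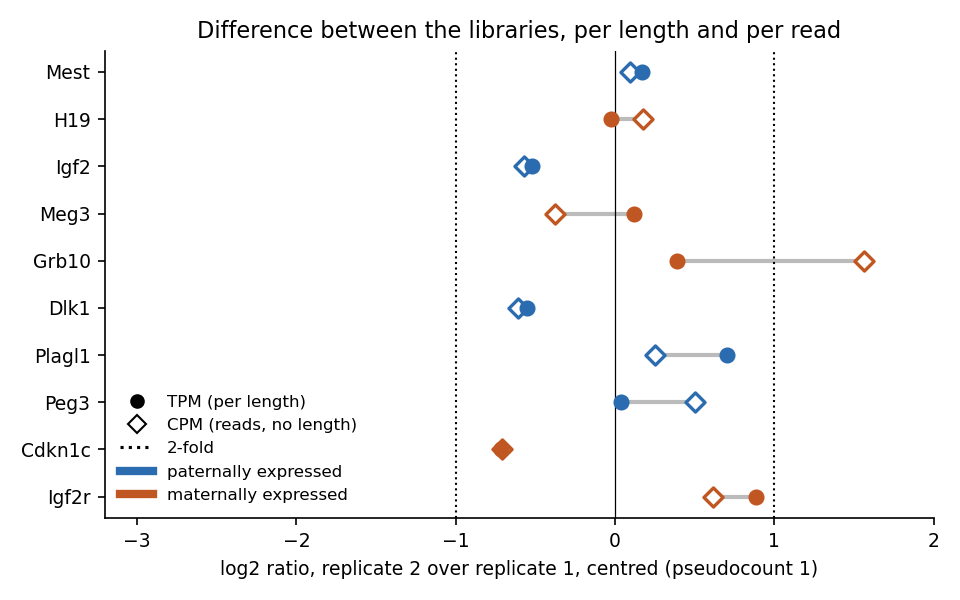
Centred log2 ratio, replicate 2 over replicate 1, of each member on TPM (filled circles) and on CPM (open diamonds), joined by a grey line, with dotted lines at 2-fold and blue and orange for paternally and maternally expressed genes. Grb10 moves from 0.39 to 1.56, and Cdkn1c, with 1 expressed transcript, keeps its place at -0.71.

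The leading transcript by TPM was the same in both libraries for 6 of the 10 members, against 62.5% of 4445 genes that averaged TPM 10 or more and had 2 or more transcripts. These were Mest, Dlk1, Plagl1, Peg3, Cdkn1c and Igf2r. It differed for H19, Igf2, Meg3 and Grb10, although in replicate 2 H19-205 and H19-203 were almost level at 211.66 and 211.64 TPM. By reads, 8 members had the same leading transcript, with Meg3 and Grb10 joining them. The share of all genes was not computed by reads. The tables list 91 transcripts of the members, and 46 had reads in replicate 1 and 52 in replicate 2.

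**Figure D4:**
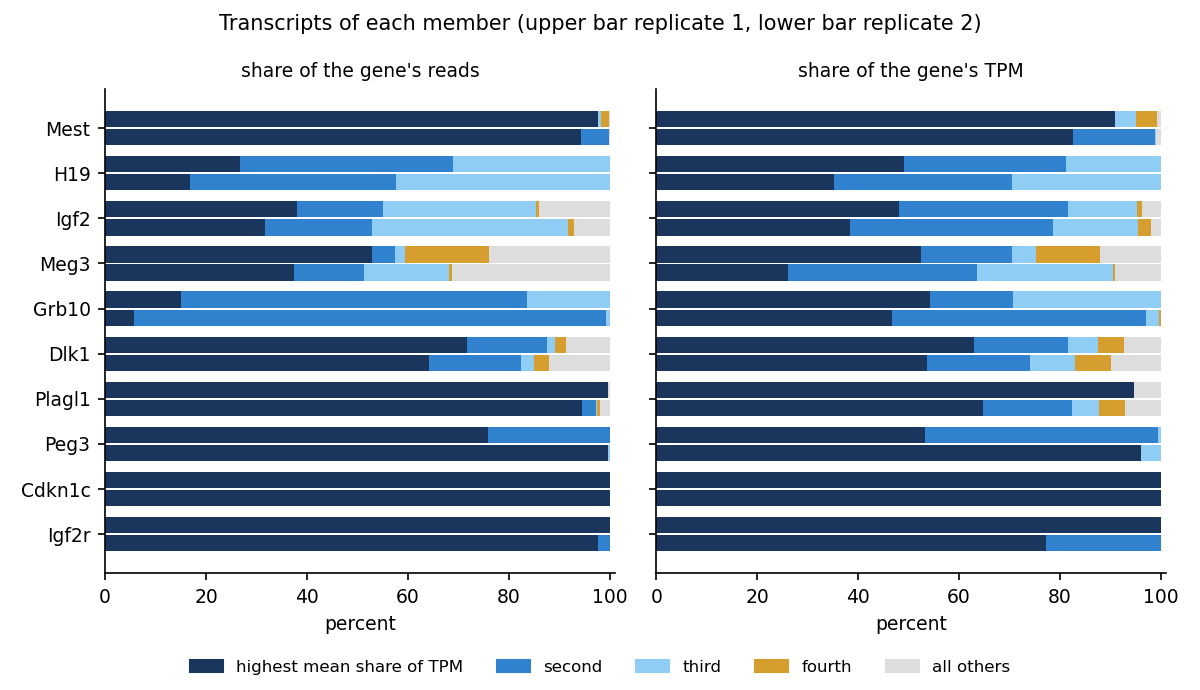
Percent of each member's reads (left) and of its TPM (right) given to its transcripts, with the upper bar for replicate 1 and the lower for replicate 2. Colours rank a gene's transcripts by mean share of TPM. Grb10 shows a long transcript with 93.5% of reads and 50.4% of TPM in replicate 2, and Cdkn1c a single one.

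Other imprinted genes were read in the same way. Of 45 matched genes listed as imprinted in mouse outside the 10 members, 15 were at TPM 1 or more in both libraries, 11 in 1 library and 19 in neither. The 15 are 57.7% of the 26 that reached that level in either library, near the 60.1% of all genes. Among the 23 listed as paternally expressed, 9 were detected in both, led by Nnat, Slc38a4 and Ndn. Nnat, a small membrane protein gene, had 164 TPM in replicate 1 and 5.29 in replicate 2. Ndn, the gene for necdin, which restrains growth, had 103 and 3.46. Slc38a4, an amino acid transporter, had 80.8 and 53.9. Usp29, next to Peg3, had no read.

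Among the 22 listed as maternally expressed, 6 were detected in both libraries. Whether each listed gene is imprinted in this tissue was not measured. Commd1 was highest at 227 and 403 TPM, followed by Rian and by Gnas, for a G protein alpha subunit, at 88.7 and 73.3. Ascl2, a transcription factor of the placenta, had no read. Of the 15 other imprinted genes averaging TPM 10 or more, 9 (60%) were past 2-fold between the libraries, near the 51.1% of all genes. Their median absolute log2 ratio was 1.23. Commd1, Rian, Gnas and Slc38a4 were among those within 2-fold. These 15 genes were not compared with the members at like levels.

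**Figure D5:**
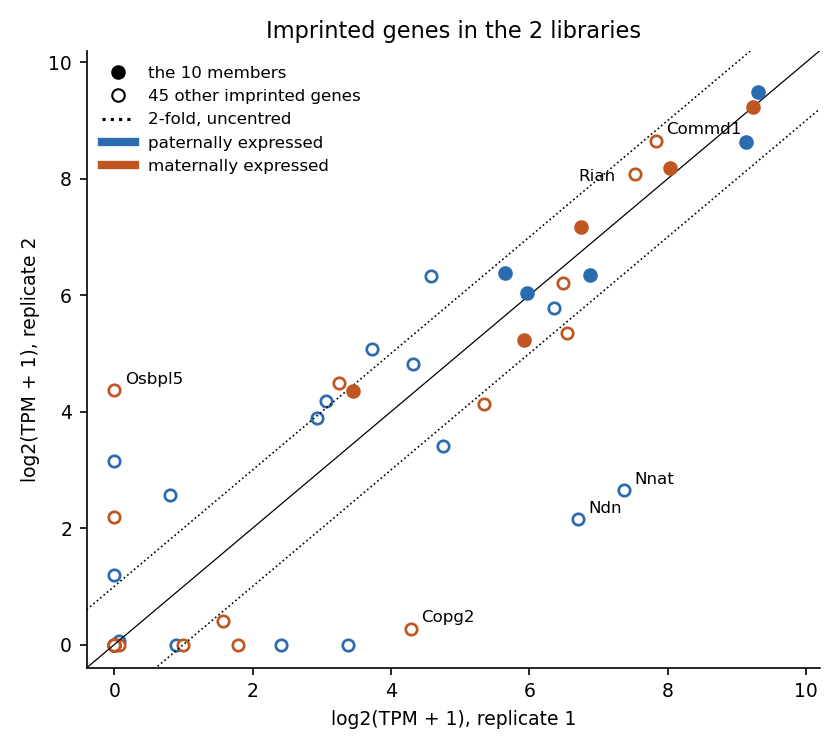
log2(TPM + 1) in replicate 2 against replicate 1 for the 10 members (filled) and 45 other imprinted genes (open), blue for paternally and orange for maternally expressed, with dotted lines at 2-fold without centring. The members lie between the dotted lines, as do Rian and Commd1 among the other imprinted genes. Nnat and Ndn lie far below the diagonal, and Osbpl5 and Copg2 lie at or near 0 in 1 library.

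Genes for proteins that bind IGFs, and their regulators, formed a list of 12. Of the 5 detected in either library 3 were detected in both, a share near the 60.1% of all genes. In replicate 1 and replicate 2, Igfbp4 was at 69.1 and 168 TPM, Igfbp5 at 9.53 and 40, and Igfbp1 at 25.1 and 0. Igfbp7, Igfals and Pappa had no read. Igfbp4 and Igfbp5 were past 2-fold higher in replicate 2, as were 25.2% of all genes, and Igfbp1 was past 2-fold higher in replicate 1, as were 25.8%.

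Downstream of the receptors, 14 of 25 adaptor and kinase genes were detected in both libraries, 9 in 1 library and 2 in neither. The 14 are 60.9% of the 23 detected in either library, near the 60.1% of all genes. Eif4ebp1, a translation repressor controlled by mTOR, was highest at 230.1 and 195 TPM, then Grb10 and Rheb, an activator of mTOR, at 19.9 and 59.1. Irs4 and Grb14, the latter a relative of Grb10, had no read. Of the 11 averaging TPM 10 or more, 2 were past 2-fold in each direction, where 25.2% of all genes were past it higher in replicate 2 and 25.8% higher in replicate 1.

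The genes for proteins that bind Igf2 mRNA were expressed in both libraries. Igf2bp1 stood at 36.7 TPM in replicate 1 against 35.6 in replicate 2, Igf2bp2 22.4 and 19.7, and Igf2bp3 30.4 and 7.13. In the same list, Hmga1 had 622 and 605 TPM and Hmga2, a chromatin protein of fetal tissue, 32.5 and 38.1, while Lin28a had no read. In all, 5 of these 7 genes were detected in both libraries, or 83.3% of the 6 detected in either, against 60.1% of all genes.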

How the data were processed

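Each library came with a gene and a transcript table. The authors deposited expected counts (estimated reads, fractional in 4.55% and 4.32% of gene rows), TPM, FPKM, effective lengths and the percent of a gene's abundance given to each transcript, per the file headers. Deposited TPM sums to the same total in each library, spike-ins included. Assembly mm10 and annotation M4 are named in the deposited notes. Aligner and quantifier are named nowhere in the labels or headers (not given in the sources used here). Effective length was the transcript length minus 99 bases.

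Names, coordinates and exons came from GENCODE M21 by identifier without version, a later release (42462 of 43346 Ensembl rows matched). Values were computed with Python 3.11.15, numpy 2.4.6 and pandas 2.3.3. Expected counts were divided by their total for CPM. The computing of the 2-fold rule was checked on simulated libraries that held set changes and read counting error only. The real libraries differed by more than that, so the check does not give the rule's error rate here. Before averaging, the libraries were compared over 11205 genes with at least 20 reads, and they differed by more than read counting allows (chi-square over degrees of freedom 814), so they were kept as 2 libraries. That statistic treats amplified reads as independent molecules and says nothing of biological difference.

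The members and lists were chosen with earlier results of these data known. The rule for named genes was all members, the 3 highest genes of each list, up to 3 under TPM 1 in both libraries, and neighbours of members. Marker lists are instead given as sums, with genes at 0 and genes that ran against the sum. Osbpl5, Igf1r, Insr, Cdkn1a, Cdkn1b, Igf2bp2, Igf2bp3, M6pr, Dnmt1, Uhrf1, Ctcf, Zfp445 and the markers fall outside this rule and were named after their values were seen. With 2 libraries no gene is given as most like a member. Alternatives covered the abundance column, pseudocount, centring, filter, detection threshold and left-out replicates.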

Additional observations from a re-analysis of the deposited data

How the results depend on the processing

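Of 169 alternative values, 146 stayed within the spread between replicates or within 1.5 times a count. That number overstates stability, since some alternatives could not move. With 2 libraries a left-out replicate always stays within the spread, and FPKM or rescaled TPM cannot change a ratio within a library. The ratio of paternal to maternal sums (1.3) was 1.77 on CPM, 1.64 with reads divided by the longest transcript, 1.95 without Igf2 and H19 and 1.47 without Grb10, and ran from 1.24 to 1.37 with either replicate left out. Its direction depended on Mest and on Igf2, as leaving out either gene alone would put the maternal sum higher. With the longest transcript, a setting chosen after seeing the data, Igf2 over H19 was 0.289, Igf2 over Igf2r 9.55, and Dlk1 over Meg3 1.33, which reversed their order. On CPM Igf2 over Igf2r was 5.03. Leaving out either replicate gave 0.664 to 0.937 for Igf2 over H19, 0.279 to 0.447 for Dlk1 over Meg3 and 20.4 to 56.7 for Igf2 over Igf2r. TPM rescaled to Ensembl rows raised the shares to 0.148% and 0.114%, and left-out replicates gave 0.135 to 0.142% and 0.104 to 0.109%. The number of members past 2-fold was 1 when centred on spike-ins (Cdkn1c), 1 on CPM and 1 with a length common to both libraries (Grb10), the last added after seeing the data. All 10 members stayed detected in both libraries at TPM 0.1, TPM 5 and 10 expected counts. At TPM 5 or more, 2 IGF ligands and receptors and 0 Notch genes were detected in both. With 1 library per replicate and 1 cell-equivalent of RNA, the parts of sampled molecules, amplification and biology in a difference between libraries cannot be told apart.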

Other observations

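Of 17 genes listed for the setting or keeping of imprints, 12 were detected in both libraries. The 12 are 92.3% of the 13 detected in either library, where the share of all genes was 60.1%. Dnmt1, which copies DNA methylation to the new strand, had 34.1 TPM in replicate 1 and 62.8 in replicate 2. Hdac1, a histone deacetylase, had 224 and 97.2 TPM, and Atrx, a chromatin remodeller, 65.9 and 211. The Dnmt1 partner Uhrf1 had 95.8 and 97.8. Trim28, a corepressor held at imprinted regions by zinc finger proteins, had 77.9 and 204 TPM, and Ctcf, the insulator protein of the Igf2 and H19 region, had 12.1 and 39.6. Zfp57, which marks imprinted regions for Trim28, was at 0 and 0.02 TPM, and Zfp445, of the same kind, at 22.9 and 0. Dnmt3l and Dppa3 had no read. Of the 13 averaging TPM 10 or more, 5 were past 2-fold higher in replicate 2 and 3 in replicate 1, where 51.1% of all genes passed in either direction.

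Lysosomal sorting, the other role of the IGF2 receptor, was represented by M6pr, the smaller mannose 6-phosphate receptor, at 145 TPM in replicate 1 and 200 in replicate 2, above Igf2r in each. Of 10 sorting genes and cargo enzymes, 6 were detected in both libraries, or 66.7% of the 9 detected in either, near the 60.1% of all genes. Of the 7 averaging TPM 10 or more, 5 were past 2-fold higher in replicate 1, against 25.8% of all genes. Among the lysosomal protease genes, Ctsd had 575 and 197 TPM and Ctsb 271 and 103, both past 2-fold, and Ctsl 231 and 135, which was not. The macrophage list summed to 340 and 145 TPM in the same libraries, and its part in this was not tested. Of 13 Notch pathway genes, 2 were detected in both libraries, Notch2 at 2.93 and 14.7 TPM and Hes1 at 2.94 and 1.59. These 2 are 50% of the 4 detected in either library, against 60.1% of all genes. Hey1 had 0.01 and 6.37 TPM.

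All 11 cell cycle genes listed, Cdkn1c among them, were detected in both libraries, against 60.1% of all genes detected in either. Cdk1 had 503 and 337 TPM, Ccnd3 218 and 337, and Ccna2 149 and 190.1.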
